A study of Mus musculus with 6 samples.

Results

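Amino acids cross endothelial membranes through solute carriers, and the transcripts of these carriers were compared between control and Erg- and Fli1-deleted endothelial cells grown from mouse brain. The carriers were taken as the genes whose symbols begin with Slc1a, Slc3a, Slc6a, Slc7a, Slc36a, Slc38a or Slc43a, which gave 67 of the 52636 genes of the count table. Of these, 38 had at least 10 counts summed over the 6 libraries and are described here. The other 29 had at most 9 counts in all, and they include Slc1a2, the main glutamate carrier of astrocytes. The edgeR filter on low counts passed 31 of the 38. One of the 31, Slc7a6os, is a gene named after its neighbour Slc7a6 and is not a carrier. The symbol rule also admits the creatine carrier Slc6a8, the dopamine carrier Slc6a3, the serotonin carrier Slc6a4 and the nucleobase carrier Slc43a3, which move other substrates.

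The control group was 3 libraries of wild-type cells, and the knockout group was 3 libraries of cells with a double knockout of Erg and Fli1, both encoding ETS-family transcription factors of endothelium. Both groups were cultured and both received 4-OHT (4-hydroxytamoxifen), the agent used to induce the deletion. The labels name neither the recombinase line nor the age of the mice. DAPI-negative cells that stained for CD31 and VE-cadherin and lacked CD45 were sorted before RNA was isolated. Whether any libraries came from the same animal or culture is not in the labels, so the p-values rest on the scatter of these libraries, some of it possibly technical. In such bulk libraries fewer cells of a type and less RNA per cell cannot be told apart.

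Endothelial cells of the brain form the blood-brain barrier, and amino acids reach the brain mostly through carriers rather than between the cells. Large neutral amino acids such as leucine pass through LAT1, a dimer of the light chain Slc7a5 and the heavy chain Slc3a2 that exchanges one amino acid for another. Cationic amino acids enter through Slc7a1 and its relatives, while sodium-coupled carriers of the Slc1, Slc6 and Slc38 families concentrate glutamate, glutamine, taurine, glycine and other small amino acids. Cells that lack amino acids raise the translation of Atf4, whose protein binds C/EBP-ATF response elements near genes such as Asns and Slc7a11.

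Promoter windows were searched because the deleted factors bind an ETS core and because several carriers are known targets of the amino acid response. The windows, from RefSeq on GRCm38.p6, covered 250 bases before the transcription start and were found for 27 of the 38 genes. Of the 43 windows of these genes, 28 had the bases after their start found in an annotated transcript of the gene. No window was used for Slc6a15, Slc7a5, Slc7a2 or Slc6a6. The 4 windows below are those of the most decreased and of the only increased called carrier with a window (Slc7a7, Slc7a1), of a called carrier without a match (Slc1a4) and of the cystine carrier with a pair of response elements (Slc7a11), the last 2 chosen after their values and matches were seen. Each is written 5′ to 3′ on the minus strand with matches to the 4 motifs searched in capitals, and each stops where an annotated exon begins.

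Slc7a7: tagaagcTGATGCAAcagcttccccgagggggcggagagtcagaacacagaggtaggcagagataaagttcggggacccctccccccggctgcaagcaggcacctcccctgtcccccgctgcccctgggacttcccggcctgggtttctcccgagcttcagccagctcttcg
Slc1a4: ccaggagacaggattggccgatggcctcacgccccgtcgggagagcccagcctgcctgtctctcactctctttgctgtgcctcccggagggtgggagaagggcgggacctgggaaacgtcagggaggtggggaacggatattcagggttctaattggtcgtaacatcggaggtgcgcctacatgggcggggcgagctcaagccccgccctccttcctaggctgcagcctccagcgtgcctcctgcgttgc
Slc7a1: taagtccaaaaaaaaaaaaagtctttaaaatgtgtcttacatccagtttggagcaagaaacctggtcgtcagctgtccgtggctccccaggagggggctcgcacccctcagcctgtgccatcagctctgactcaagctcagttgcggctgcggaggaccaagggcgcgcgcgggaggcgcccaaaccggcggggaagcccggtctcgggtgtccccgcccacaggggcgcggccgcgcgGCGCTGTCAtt
Slc7a11: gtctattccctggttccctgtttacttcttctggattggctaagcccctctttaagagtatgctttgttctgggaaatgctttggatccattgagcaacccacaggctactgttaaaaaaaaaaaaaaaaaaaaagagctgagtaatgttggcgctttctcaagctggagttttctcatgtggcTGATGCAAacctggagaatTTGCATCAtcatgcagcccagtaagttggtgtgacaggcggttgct

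The windows lie at chr14:54417781-54417952 for Slc7a7, chr11:20332714-20332963 for Slc1a4, chr5:148399905-148400154 for Slc7a1 and chr3:50443615-50443863 for Slc7a11. The C/EBP-ATF response element was searched as TGATGNAA on both strands and was present in the windows of 3.91% of all 27025 genes. Among the carriers it matched 2 genes, Slc7a7 (bases 243 to 236 before the RefSeq start in the window shown) and Slc7a11 (bases 66 to 59 and, on the other strand, 47 to 40). The core of the antioxidant response element, TGACNNNGC, matched 5 carriers (Slc38a2, Slc43a1, Slc6a9, Slc7a1 and Slc7a6) and 11.5% of all genes, and in Slc7a1 it ended 3 bases before the start. The ETS core CCGGAA matched 8 genes of the 27 (Slc36a4, Slc38a6, Slc38a7, Slc3a2, Slc43a2, Slc6a9, Slc7a6 and Slc7a6os) and 13.6% of all genes. The E-box CACGTG matched Slc1a6, Slc36a1, Slc38a7, Slc43a1 and Slc6a3, against 6.86% of all genes. The matches of Slc3a2, Slc38a7 and Slc36a1 lie in windows whose start was not found in an annotated transcript, and the window of Slc3a2 lies inside the gene. The 27 genes have 43 windows and all 27025 genes have 32851, so the shares of genes are not strictly like for like. A match describes letters in a window, and binding was not measured.

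The libraries held 17274639 to 19410458 counts, and levels are given in CPM, the usual measure of counts relative to library size, here on TMM-scaled sizes. Erg fell from 656, 223 and 609.6 CPM in controls 1 to 3 to 70.2, 88.3 and 109.4 CPM in the knockouts (log2 fold change -2.48, adjusted p = 0.0137 by edgeR). That call was lost without control 3 or any 1 knockout library, with adjusted p up to 0.0691. Fli1 had 64.2 to 92.1 CPM in controls and 57.0 to 68.5 CPM in knockouts (log2 fold change -0.32, adjusted p = 0.181 by edgeR), and without control 2 it was called lower (-0.48, adjusted p = 0.00346). Control 2 stood apart: the chi-square per degree of freedom of its counts was 210 and 191 against controls 1 and 3 and 184 to 195 against the knockouts, while controls 1 and 3 differed by 6.28. The 10 endothelial markers were present in every library. In the knockouts 9 of 10, all but Eng, were called lower, beside 11.7% of all genes called lower and 13.1% higher. This count and the sum include Erg, whose fall was set by the design. The summed level of the 10 markers was 15990, 6660 and 15950 CPM in controls 1 to 3 and 3868 to 4715 CPM in the knockouts. The 10 fibroblast markers summed to 409, 12350 and 1099 CPM in controls 1 to 3 and 1645 to 2865 CPM in the knockouts, where 1 of 10 (Pdgfra) rose and Dcn, which did not pass the test (adjusted p = 0.156 by edgeR), made up 1343 to 2110 CPM of the sum. The 10 mural markers summed to 476, 4296 and 586 CPM and to 782 to 1574 CPM, with 1 of 10 (Abcc9) lower. Of the brain lists, astrocyte markers summed to 8.63 to 17.7 CPM over all libraries with Ntsr2 at 0 and none called, neuron markers to 25.8 to 98.9 CPM with none called, and oligodendrocyte markers to 25.2 to 75.7 CPM with Olig1 at 0. Of the oligodendrocyte markers, Mbp was called higher (0.164 to 0.218 CPM in controls, 1.44 to 4.02 CPM in knockouts) and Cnp lower (40.2 to 73.7 and 22.5 to 25.8 CPM, most of the sum). Microglial and leukocyte markers summed to 164 CPM in control 2, of which Tmem119 gave 160.0 CPM, and to 3.29 to 14.5 CPM elsewhere. Epithelial markers summed to 6.38 to 15.1 CPM with Ttr at 0, and Krt18 was called higher (0.871 to 3.21 CPM in controls, 6.58 to 9.46 CPM in knockouts). Xist was at 431 to 611 CPM in control 2, knockout 2 and knockout 3, while the Y-linked Ddx3y was at 109.6 to 116 CPM in the other libraries, which marks them as female and male. Carrier tests are therefore given with and without control 2. Without it both remaining controls were male while knockouts 2 and 3 were female, so that fit cannot fully tell sex from genotype. Its p-values also rest on controls 1 and 3, the most alike pair of all libraries.

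In all 6 libraries, 7 of the 31 tested genes passed the edgeR test at an adjusted p under 0.05. Slc7a5, Slc7a7, Slc1a4, Slc38a6 and Slc38a7 fell, and the cationic carrier Slc7a1 and the branched-chain amino acid and proline carrier Slc6a15 rose. The 5 lower were 16.1% of the carriers, beside 11.7% of all 13901 genes tested, and the 2 higher were 6.45%, beside 13.1% of all genes, so that neither share stood far from the background. With scaling by library size only, 4 were higher and 5 lower. The median log2 fold change was -0.06 over the 31 genes and 0.00 over all genes. The groups did not overlap in 13 of the 31 genes (41.9%), against 46.3% of all genes. Without control 2, 13 of 32 tested genes were higher and 12 were lower, including all 7 of the first fit. These were 40.6% and 37.5% of the carriers, beside 25.5% of 14178 genes higher and 24.8% lower, and the medians were 0.03 for the carriers and 0.00 for all genes. The sum of all carrier transcripts was 2073, 2555 and 2188 CPM in controls 1 to 3 and 2065 to 2136 CPM in the knockouts (exact two-sided permutation test, p = 0.3).

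**Figure D1:**
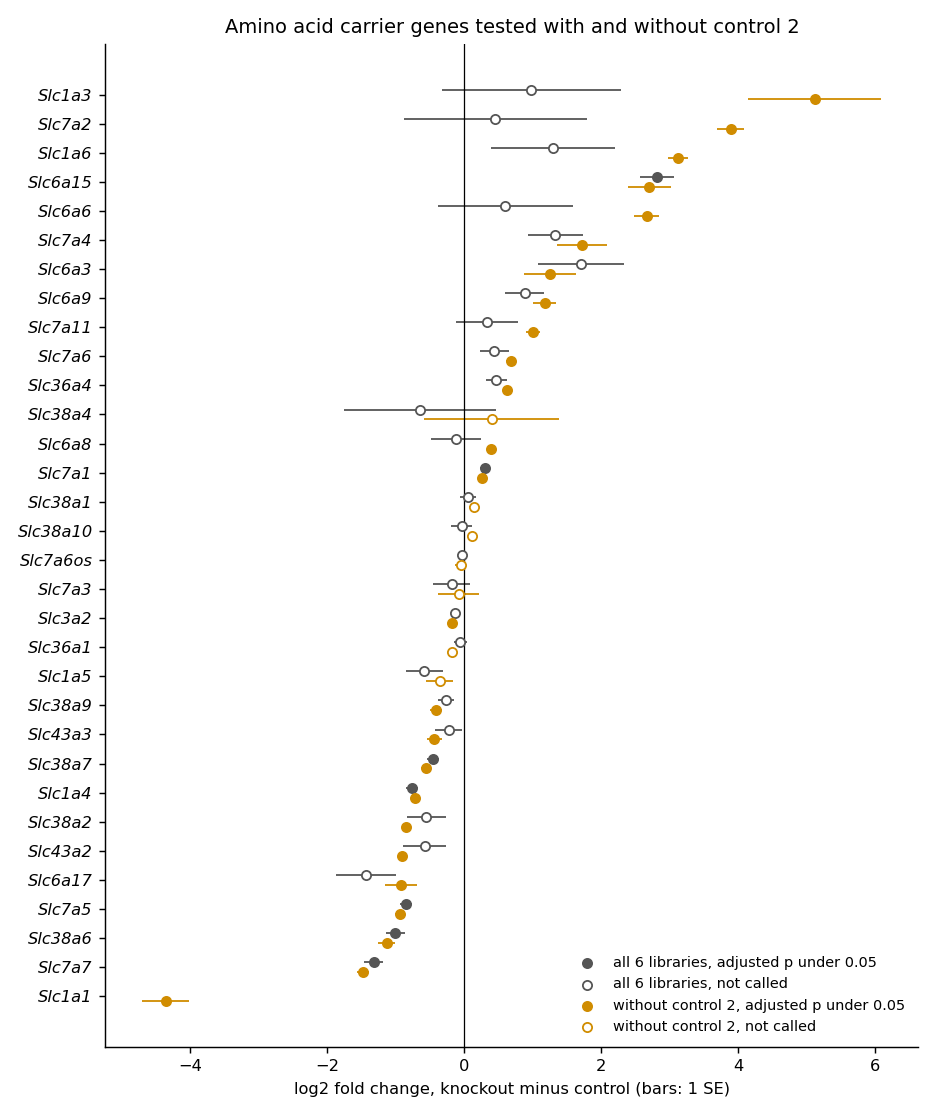
Log2 fold changes (knockout minus control, x axis, bars 1 SE) of the tested carrier genes with all 6 libraries (grey) and without control 2 (orange), with filled points at an edgeR adjusted p under 0.05. The 5 lower and 2 higher calls of all 6 libraries keep their sides without control 2, where 12 are lower and 13 higher. The values of Slc1a3 and Slc1a1 rest on low counts.

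The heavy chain Slc3a2 pairs with light chains to form heteromeric exchangers. Levels of different genes are compared here as CPM per kilobase of exon. The length is that of all annotated exons of a gene merged, not of the transcripts expressed, so the order of different genes depends on it. Slc3a2 (ENSMUSG00000010095; GRCm38 chromosome 19, 8706882 to 8723369, minus strand), the CD98 heavy chain that carries the light chains to the membrane, had 42.6, 42.3 and 42.8 CPM per kilobase in controls 1 to 3 and 40.0, 38.5 and 37.7 CPM per kilobase in the knockouts. The groups did not overlap but lay close together. The log2 fold change was -0.13 (SE 0.05, adjusted p = 0.105 by edgeR) in all 6 libraries and -0.17 (adjusted p = 0.0206) without control 2, a call that was lost when libraries were scaled by size only. The light chains Slc7a5, Slc7a6, Slc7a7, Slc7a8 and Slc7a11 together gave 55.1, 56.6 and 56.7 CPM per kilobase in controls and 37.2, 39.5 and 39.6 CPM per kilobase in knockouts. The group means were 56.1 ± 0.864 and 38.8 ± 1.39 CPM per kilobase (SD, n = 3 each, exact two-sided permutation test, p = 0.1, the smallest that 3 against 3 libraries can give). On this scale, light chain transcripts exceeded the heavy chain in each control library, while in the knockouts the levels of both were within 3 CPM per kilobase of each other. With other lengths this order could differ.

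Slc7a5 (ENSMUSG00000040010; chromosome 8, 121881150 to 121907694, minus strand), the leucine-carrying light chain of LAT1, had 134.5, 119.5 and 137.2 CPM in controls 1 to 3 and 66.65, 71.5 and 78.5 CPM in knockouts 1 to 3. Every knockout lay below every control, and control 2 was close to the other controls. Its log2 change was -0.85 (SE 0.0885, adjusted p = 0.00333 by edgeR), or 0.554 of the control level, and -0.95 without control 2. Slc7a7 (ENSMUSG00000000958; chromosome 14, 54369442 to 54417780, minus strand), the light chain y+LAT1 that exports cationic amino acids in exchange for neutral ones, had 33.0, 24.8 and 33.5 CPM in controls and 12.5, 11.5 and 12.5 CPM in knockouts. The knockouts were nearly equal to each other and all below control 2, the lowest control. Slc7a7 showed the largest decrease among the called carriers (log2 fold change -1.32, SE 0.138, adjusted p = 0.00341 by edgeR), and the value was -1.48 without control 2. An opposite-strand gene, Oxa1l, covers 7.00% of its exonic bases, and the strand setting of the counting is not given in the sources used here. The calls of Slc7a5 and Slc7a7 held when any 1 library was left out, with edgeR adjusted p up to 0.0250 and 0.0248.

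**Figure D2:**
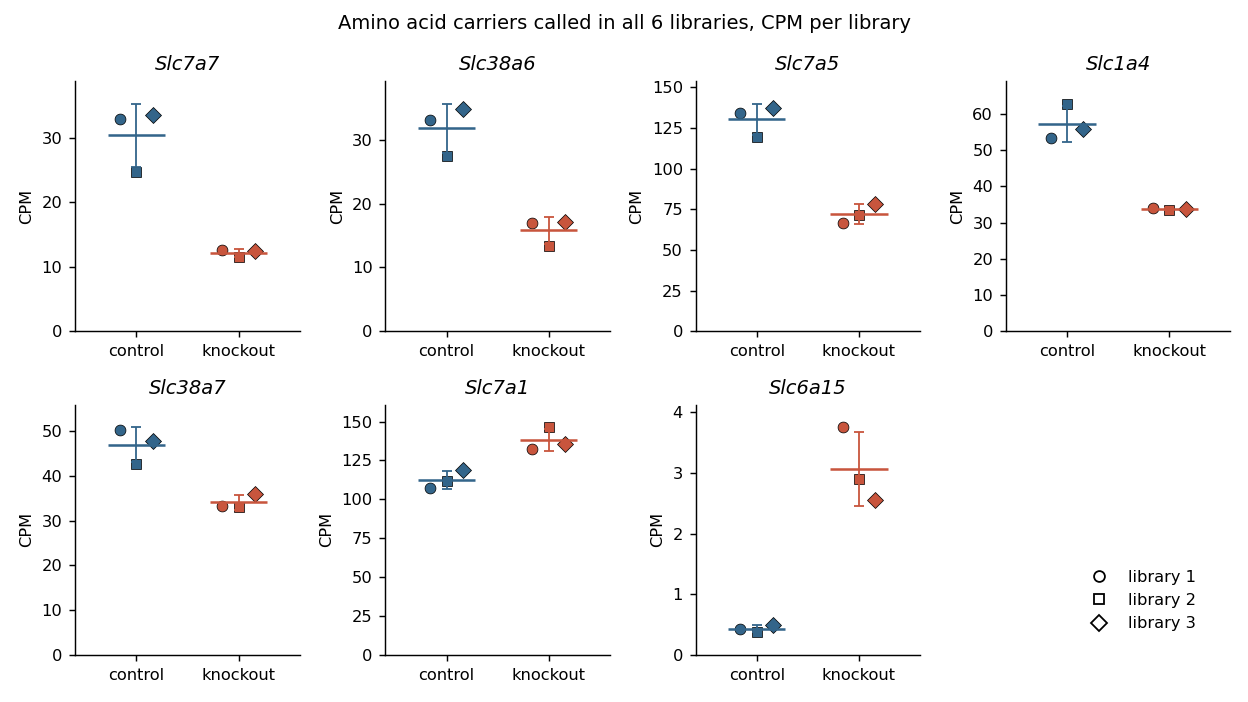
Level in CPM (y axis, from 0) of each carrier called in all 6 libraries, by library (circle, square and diamond for libraries 1, 2 and 3), with the group mean and SD (n = 3 each). In all 7 panels the 3 knockout libraries lie on one side of the 3 controls, from Slc6a15 at 0.381 to 3.75 CPM to Slc7a1 at 107 to 146 CPM. The panels were picked by a test on the same values, so this separation is no further support. Over all tested genes, 46.3% did not overlap.

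The other tested light chains were called lower in neither fit. Slc7a6, the relative y+LAT2 of Slc7a7, had 35.6, 59.6 and 37.4 CPM in controls and 58.7, 64.9 and 56.2 CPM in knockouts, with control 2 inside the knockout range. On the log2 scale the difference was 0.44 (adjusted p = 0.188 by edgeR) and rose to 0.68 (adjusted p = 3.27e-04) without control 2. Slc7a11 (ENSMUSG00000027737; chromosome 3, 49892526 to 50443614, minus strand), the light chain xCT that imports cystine for glutathione synthesis in exchange for glutamate, had 15.1, 48.5 and 18.4 CPM in controls and 35.6, 34.7 and 32.6 CPM in knockouts. Control 2 was the highest of all libraries, whereas controls 1 and 3 were the lowest. The change on the log2 scale was 0.33 (SE 0.45, adjusted p = 0.63 by edgeR) with all libraries and 1.00 (SE 0.106, adjusted p = 2.88e-04) without control 2.

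The mix of light chains differed accordingly. Slc7a5 gave 65.8%, 57.0% and 65.3% of light chain transcripts per kilobase in controls 1 to 3 and 48.4%, 48.8% and 53.5% in knockouts. The share of Slc7a7 was 18.1%, 13.2% and 17.8% in controls and 10.2%, 8.77% and 9.501% in knockouts. The share of Slc7a6 was 14.1%, 23.1% and 14.5% in controls and 34.6%, 35.9% and 31.0% in knockouts. None of these 3 shares overlapped between the groups (exact two-sided permutation test, p = 0.1 for each, the smallest possible here). The share of Slc7a11 was 1.96%, 6.16% and 2.33% in controls and 5.91% to 6.88% in knockouts, with control 2 inside the knockout range. Of the 18 summed levels and shares compared in this way, none could pass an adjustment over them in a design of 3 against 3.

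**Figure D3:**
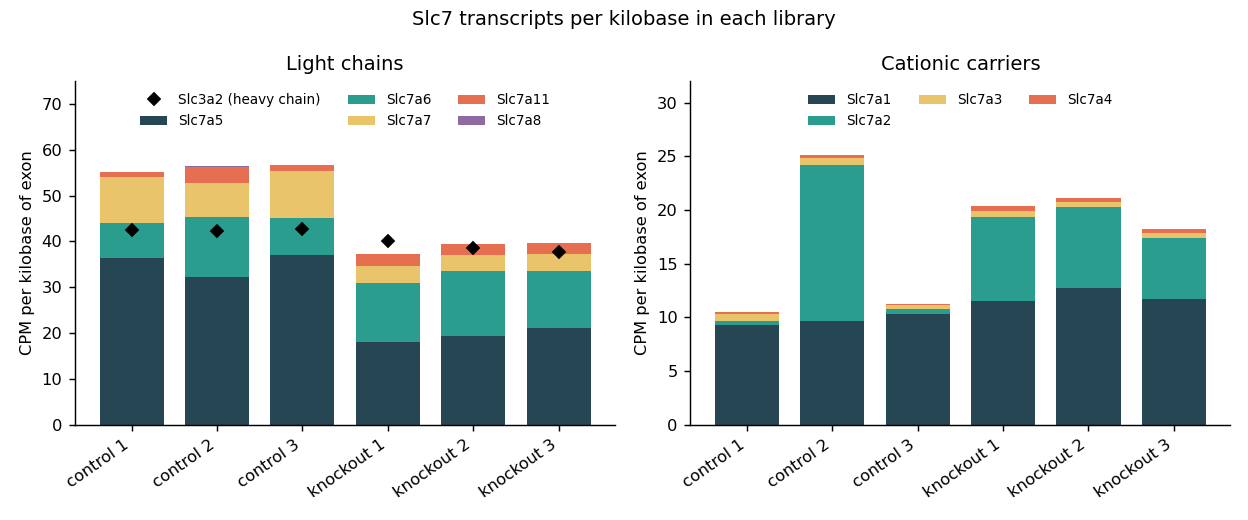
CPM per kilobase of exon (y axis) of the light chains (left, with Slc3a2 as diamonds) and of the cationic carriers (right) stacked in each library. The light chain columns are 55.1 to 56.7 high in controls and 37.2 to 39.6 in knockouts, and the Slc7a2 segment is thin in controls 1 and 3 only.

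Among the cationic carriers, 1 of 4 tested rose and none fell, and without control 2 the count was 3 of 4, beside 13.1% and 25.5% of all genes called higher. Slc7a1 (ENSMUSG00000041313; chromosome 5, 148327410 to 148399904, minus strand), the widespread arginine and lysine carrier CAT1, had 107, 111.7 and 118.6 CPM in controls and 132.6, 146.2 and 135.3 CPM in knockouts. The groups did not overlap, and control 2 lay between the other controls. The log2 fold change was 0.30 (SE 0.0672, adjusted p = 0.0277 by edgeR), a small rise whose call was lost without control 1, control 3 or any 1 knockout (adjusted p up to 0.107), and with a term for sex. Without control 2 it was 0.26 (adjusted p = 0.0145). Slc7a2 (ENSMUSG00000031596; chromosome 8, 40862396 to 40922308, plus strand), the arginine carrier CAT2 known from macrophages and liver, had 3.74, 132.3 and 4.71 CPM in controls and 71.7, 69.4 and 51.2 CPM in knockouts. Control 2 exceeded every knockout and the other controls lay far below them. With all libraries its log2 fold change was 0.45 (SE 1.33, adjusted p = 0.833 by edgeR), and without control 2 it was 3.89 (SE 0.197, adjusted p = 1.4e-05). Slc7a1 accordingly gave 88.7% and 91.4% of cationic carrier transcripts per kilobase in controls 1 and 3, 38.7% in control 2 and 56.4% to 64.4% in knockouts. Slc7a4, a family member without a proven substrate, had 0.685, 1.09 and 0.384 CPM in controls and 2.16, 1.73 and 1.56 CPM in knockouts (log2 fold change 1.33, adjusted p = 0.0597 by edgeR, and 1.71 without control 2, adjusted p = 0.00747). Its exons overlap P2rx6 on the other strand over 13.3% of their bases. Slc7a3 had 1.37 to 2.40 CPM and was called in neither fit.

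Among the Slc1 carriers, a neutral exchanger fell while the calls of the glutamate carriers depended on control 2 or, for Slc1a1, on the filter. Slc1a4 (ENSMUSG00000020142; chromosome 11, 20302180 to 20332713, minus strand), the alanine, serine and cysteine exchanger ASCT1, had 53.4, 62.8 and 55.8 CPM in controls and 34.1, 33.4 and 33.8 CPM in knockouts. Control 2 was the highest library and the knockouts differed by less than 1 CPM. Its log2 change was -0.76 (SE 0.0808, adjusted p = 0.00342 by edgeR) and -0.73 without control 2, and the call held without any 1 library. Its relative Slc1a5, the glutamine exchanger ASCT2, had 11.4, 21.4 and 15.4 CPM in controls and 8.48, 11.2 and 12.5 CPM in knockouts, with overlap between the groups (log2 fold change -0.58, adjusted p = 0.168 by edgeR, and -0.36 without control 2, adjusted p = 0.173). Slc1a6 (ENSMUSG00000005357; chromosome 10, 78780496 to 78814765, plus strand), the glutamate carrier EAAT4 known from Purkinje neurons, had 4.11, 40.4 and 4.99 CPM in controls and 43.7, 35.5 and 42.2 CPM in knockouts. Control 2 lay within the knockout range. On the log2 scale the difference was 1.29 (SE 0.902, adjusted p = 0.339 by edgeR) in all libraries and 3.12 (SE 0.148, adjusted p = 1.1e-05) without control 2.

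Slc1a6 gave 80.6% to 99.4% of the glutamate carrier transcripts per kilobase in every library, and it ranked sixth per kilobase among all carriers. Slc1a1, the glutamate and cysteine carrier EAAT3, had 72, 6 and 54 counts in controls 1 to 3 and 4, 3 and 2 counts in knockouts. Controls 1 and 3 stood above the rest, with control 2 nearest to the knockouts. The groups did not overlap. Slc1a1 did not pass the main filter with all 6 libraries. With no filter, or a filter of 10 counts in all, edgeR called it lower in all 6 libraries. Without control 2 its log2 fold change was -4.36 (SE 0.343, adjusted p = 7.5e-05 by edgeR). Its exons overlap 4430402I18Rik on the other strand over 31.9% of their bases. Slc1a3, the glial carrier GLAST, had 0, 32 and 1 counts in controls and 15, 35 and 15 counts in knockouts, with control 2 inside the knockout range. With all libraries its log2 fold change was 0.98 (SE 1.30, adjusted p = 0.621 by edgeR). Without control 2 it was 5.11 (adjusted p = 0.00457), and the knockouts had 43.7 times the CPM of controls 1 and 3 (95% exact interval 7.58 to 1753, counting error only, from 1 control count). The summed astrocyte markers gave 8.63 to 13.2 CPM in the knockouts and 10.4 to 17.7 CPM in the controls, mostly Aldh1l1 in 5 of the 6 libraries. Of these markers, S100b had 0.158, 9.69 and 0.603 CPM in controls and 3.44, 2.96 and 1.00 CPM in knockouts, and like Slc1a3 was lowest in controls 1 and 3. Aldoc had 0.158, 0.708 and 0.0548 CPM in controls and 0.822, 1.17 and 0.835 CPM in knockouts. Aldh1l1 did not follow Slc1a3, with 8.80, 5.17 and 9.81 CPM in controls and 7.66, 6.695 and 5.79 CPM in knockouts. Gfap had 0.527, 0.218 and 0.548 CPM in controls and 0.390 to 0.502 CPM in knockouts. Both were highest in controls 1 and 3. Fgfr3 was highest in control 2 (1.63 CPM), and Aqp4, Gjb6 and Ntsr2 were at most 0.272 CPM. The part of such cells in the Slc1a3 values was not tested.

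In the Slc38 family 2 genes were called with all 6 libraries, and both were lower, beside 11.7% of all genes. They were 2 of the 4 tested lysosomal and other members, and none of the 3 tested system A members was called. Slc38a6 (ENSMUSG00000044712; chromosome 12, 73286779 to 73354049, plus strand), a member of the family with little known of its transport, had 33.1, 27.55 and 34.9 CPM in controls and 16.9, 13.4 and 17.2 CPM in knockouts. All knockouts lay below all controls. The change on the log2 scale was -1.01 (SE 0.142, adjusted p = 0.00716 by edgeR), about the same share of the control level as without control 2 (0.497 and 0.455), and the call held without any 1 library (adjusted p up to 0.0348). Slc38a7 (ENSMUSG00000036534; chromosome 8, 95835920 to 95853539, minus strand), which releases glutamine from lysosomes, had 50.3, 42.6 and 47.8 CPM in controls and 33.35, 32.9 and 36.0 CPM in knockouts. The groups did not overlap. The log2 fold change of -0.46 (SE 0.0873, adjusted p = 0.0164 by edgeR) was no longer called once control 1, control 3, knockout 1 or knockout 2 was left out (adjusted p up to 0.0766), and it was -0.56 without control 2 (adjusted p = 7.03e-04). Slc38a9, the lysosomal arginine sensor of mTORC1, had 20.1, 15.8 and 20.4 CPM in controls and 15.2 to 16.2 CPM in knockouts (log2 fold change -0.27, adjusted p = 0.165 by edgeR, and -0.41 without control 2, adjusted p = 0.00684).

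Slc38a2 (ENSMUSG00000022462; chromosome 15, 96687392 to 96699730, minus strand), the system A carrier SNAT2 of alanine and glutamine, had the highest mean per kilobase of all carriers (57.05 CPM per kilobase over the 6 libraries). It had 710.1, 353 and 736 CPM in controls 1 to 3 and 418, 399 and 408.5 CPM in knockouts. Control 2 was the lowest of the 6 libraries. The log2 fold change was -0.55 (SE 0.282, adjusted p = 0.204 by edgeR) and -0.86 (SE 0.0511, adjusted p = 2.4e-05) without control 2. The other system A carriers were called in neither fit: Slc38a1 had 64.1 to 84.0 CPM over all libraries and Slc38a4 at most 2.83 CPM. Slc38a10 (ENSMUSG00000061306; chromosome 11, 120103960 to 120151346, minus strand), a little-characterised member of the family, followed Slc38a2 and Slc3a2 in level per kilobase. It had 210.5, 308.5 and 231 CPM in controls and 239, 255 and 237 CPM in knockouts, and a log2 fold change of -0.04 (adjusted p = 0.882 by edgeR). The sign turned to 0.05 with scaling by library size only and to 0.11 without control 2, and neither value was called. With both changes it was 0.235 and was called higher (adjusted p = 0.0123).

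The proton-coupled and facilitated carriers gave no call in all 6 libraries. Slc36a4, which carries proline and tryptophan, had 35.8, 51.7 and 36.6 CPM in controls and 56.2, 58.6 and 56.7 CPM in knockouts. The groups did not overlap, with control 2 nearest to the knockouts (log2 fold change 0.47, adjusted p = 0.0801 by edgeR, and 0.63 without control 2, adjusted p = 1.14e-04). Slc36a1, its lysosomal relative, had 34.1 to 41.5 CPM and was called in neither fit. Slc43a2 (ENSMUSG00000038178; chromosome 11, 75531694 to 75577575, plus strand), the facilitator LAT4 of branched-chain amino acids and phenylalanine, had 166.6, 72.9 and 163.8 CPM in controls and 88.5, 87.8 and 94.35 CPM in knockouts. Control 2 was the lowest library, below the knockouts. Its log2 change was -0.58 (SE 0.315, adjusted p = 0.232 by edgeR) and -0.91 (SE 0.0525, adjusted p = 2.1e-05) without control 2. Slc43a3 had 62.2, 43.7 and 70.9 CPM in controls and 43.2, 53.1 and 54.5 CPM in knockouts (log2 fold change -0.23, adjusted p = 0.435 by edgeR, and -0.44 without control 2, adjusted p = 0.0144).

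Slc43a1, the facilitator LAT3 and a relative of Slc43a2, did not pass the edgeR filter on low counts. It had 9, 47 and 4 counts in controls and 0 in each knockout. Against the floor of 3 counts over the knockouts this was at least 19.9-fold lower, and at least 6.44-fold lower for the 13 counts of controls 1 and 3. The 95% exact intervals, which also take in the counting error of the controls, reached down to 15.7 and 4.53. With a filter of 10 counts in all the adjusted p was 0.0886 by edgeR, and 0.0165 without control 2. Counting error only was considered, since the labels record no molecular identifiers.

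In the Slc6 family, Slc6a15 was the only gene called with all libraries. Slc6a15 (ENSMUSG00000019894; chromosome 10, 103367783 to 103419377, plus strand) had 0.421, 0.381 and 0.493 CPM in controls 1 to 3 and 3.75, 2.90 and 2.56 CPM in knockouts. Every knockout lay well above every control, control 2 included. On the log2 scale the difference was 2.81 (SE 0.251, adjusted p = 0.00231 by edgeR), or 7.02-fold, the largest among the called carriers, at a low level (0.226 CPM per kilobase over all libraries). It was 2.699 without control 2 and held its call without any 1 library (adjusted p up to 0.0165). Slc6a17, which loads neutral amino acids into synaptic vesicles, had 4.74, 11.5 and 4.88 CPM in controls and 1.90, 3.24 and 2.67 CPM in knockouts (log2 fold change -1.44, adjusted p = 0.0623 by edgeR, and -0.92 without control 2, adjusted p = 0.0165).

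Slc6a6 (ENSMUSG00000030096; chromosome 6, 91684053 to 91759066, plus strand), the taurine carrier, had 41.9, 578.7 and 65.2 CPM in controls and 334, 374 and 331.5 CPM in knockouts. Control 2 was the highest library while controls 1 and 3 were the lowest. The change on the log2 scale was 0.60 (SE 0.987, adjusted p = 0.693 by edgeR) and 2.66 (SE 0.181, adjusted p = 4.1e-05) without control 2. Slc6a8, which imports creatine, had 46.7, 111 and 46.75 CPM in controls and 63.7, 61.2 and 63.2 CPM in knockouts, so that control 2 again exceeded all others. The log2 fold change was -0.12 (adjusted p = 0.834 by edgeR) and 0.39 (adjusted p = 8.4e-04) without control 2. Slc6a9 (ENSMUSG00000028542; chromosome 4, 117834506 to 117875198, plus strand), the glycine carrier GlyT1, had 4.27, 8.71 and 5.64 CPM in controls and 10.1, 13.0 and 11.2 CPM in knockouts. The groups did not overlap (log2 fold change 0.88, SE 0.282, adjusted p = 0.0728 by edgeR, and 1.17 without control 2, adjusted p = 0.00136). B4galt2, Ccdc24 and Gm17114 cover 30.2% of its exonic bases on the other strand. Slc6a3 had 1.26, 0.544 and 3.40 CPM in controls and 4.52, 6.19 and 6.29 CPM in knockouts (log2 fold change 1.71, adjusted p = 0.104 by edgeR, and 1.25 without control 2, adjusted p = 0.0322).

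The remaining genes were near the limit of detection. Intervals given for them cover counting error only, not the scatter between libraries, and the groups overlapped in each of these genes. Slc6a12, a betaine and GABA carrier, had 0, 28 and 10 counts in controls and 3 in all knockouts, a ratio of CPM of 12.6 (95% exact interval 4.00 to 63.9), and 4.96 (1.28 to 28.0) without control 2. Slc6a14, a broad carrier of neutral and cationic amino acids, had 18 and 2 counts, a ratio of 8.96 (95% exact interval 2.15 to 79.6), and its control counts came from control 2 alone. For Slc6a4 the counts were 7 and 3, a ratio of 2.32 (95% exact interval 0.530 to 13.9), and 2.97 (0.635 to 18.4) without control 2. Slc7a8, the light chain LAT2, had 5, 31 and 6 counts in controls and 1, 6 and 3 in knockouts, and Slc38a3, a glutamine carrier of system N known from the barrier in vivo, had 6, 16 and 20 counts and 1, 6 and 4 counts.

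Of the 6 libraries, control 2 changed the number of carriers called most when it was left out. In 18 of the 31 tested genes (58.1%) control 2 lay nearer to the knockout mean than to the mean of controls 1 and 3, against 49.1% of all genes. This held for 10 of the 13 genes called higher without it and for 4 of 11 called lower, against 49% of all genes called without it. Slc1a1, also called lower without control 2, did not pass the filter with all 6 libraries and is left out of the 11. On the log2 scale, control 2 differed from the mean of controls 1 and 3 by 4.82 in Slc7a2, 3.46 in Slc6a6, 3.02 in Slc1a6, -1.18 in Slc43a2 and -1.03 in Slc38a2. It was within 1 of that mean in 20 of the 31 genes, among them all 7 genes called in all 6 libraries. The test that called these 7 used control 2, and a control far from the others widens the spread. Their place among the 20 is thus no separate result. Limma voom with sample weights, which kept all 6 libraries, gave control 2 a weight of 0.115 against 1.15 to 1.89 for the others. It called 13 genes higher and 11 lower, all of them also called without control 2. At that weight control 2 counted for little, so the overlap of the calls is no separate support. Over the same libraries, the fibroblast and mural sums given above were highest in control 2 and the endothelial sum in controls 1 and 3, and the part of these cells in the carrier values was not tested.

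**Figure D4:**
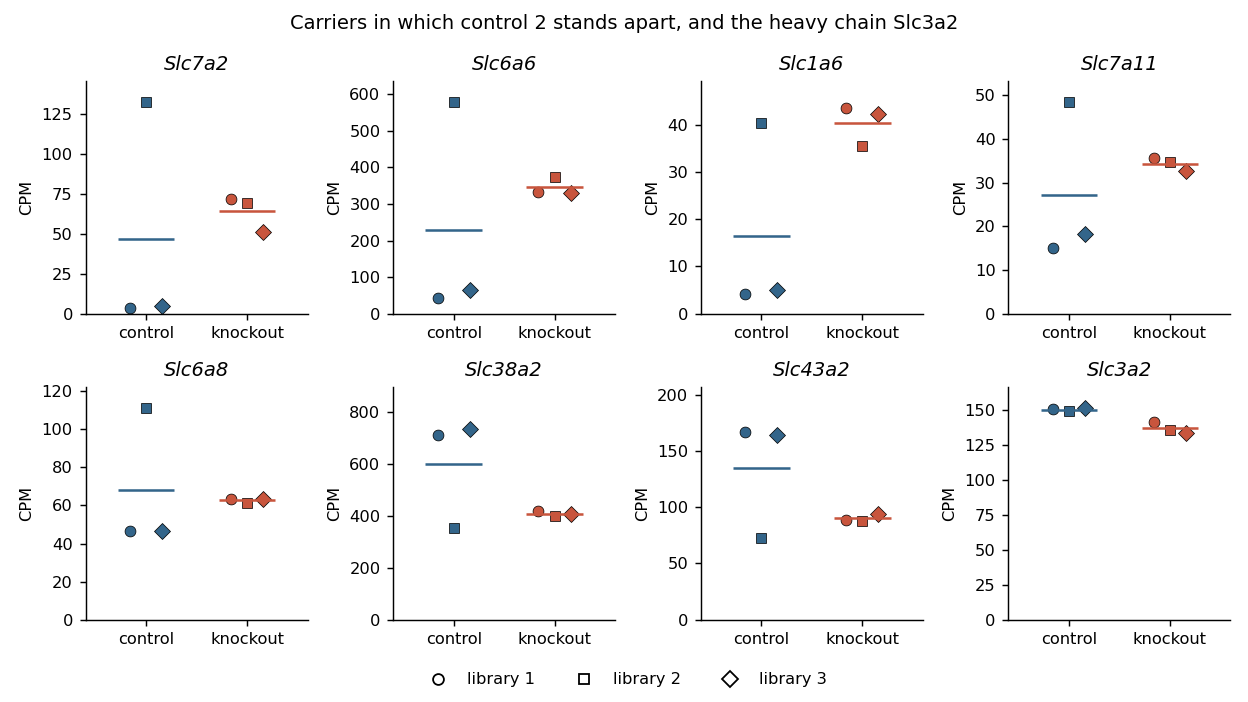
CPM (y axis, from 0) by library for carriers in which control 2 (blue square) differed from controls 1 and 3, with the group mean as a line, and for Slc3a2. Control 2 is at 132.3 CPM of Slc7a2 and 578.7 CPM of Slc6a6, above the knockouts, and at 353 CPM of Slc38a2, below them, whereas the 3 controls of Slc3a2 lie between 149 and 150.9 CPM.

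Related genes were taken from 4 lists, the amino acid response, the tRNA synthetases, amino acid sensing by mTORC1 and carriers of other families, none of which contains the carriers above. In each list the called counts stand beside 13.1% higher and 11.7% lower of all genes in all 6 libraries, and 25.5% and 24.8% without control 2. Of 23 genes of the amino acid response, 8 fell (34.8%) and 2 rose (8.70%), with a median log2 fold change of -0.51 against 0.00 over all genes, and without control 2 the counts were 13 and 6 with a median of -0.34. Atf4 itself had 263 to 274.5 CPM in controls and 242 to 265 CPM in knockouts (adjusted p = 0.372 by edgeR). Trib3, an inhibitor of Atf4 that Atf4 induces, had 49.8, 28.3 and 52.6 CPM in controls and 10.8, 12.5 and 13.7 CPM in knockouts. All knockouts lay below control 2, the lowest control (log2 fold change -1.82, SE 0.258, adjusted p = 0.00722 by edgeR). Ddit4, a stress-induced inhibitor of mTORC1, moved the other way, from 38.3, 56.4 and 38.1 CPM to 124, 93.4 and 104 CPM (log2 fold change 1.28, adjusted p = 0.00883 by edgeR). Asns, the asparagine synthetase, fell from 116 ± 8.75 to 72.7 ± 4.21 CPM (SD, n = 3 each, log2 fold change -0.68, adjusted p = 0.00426 by edgeR). The others that fell were Chac1, Eif4ebp1, Atf3, Mthfd2, Aldh18a1 and Vldlr, by log2 fold changes of -1.06 to -0.41, and Stc2 rose.

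Of the 20 cytosolic aminoacyl-tRNA synthetases, which load amino acids onto tRNAs, 6 (30%) fell and 1 (Qars, 5%) rose (5 and 2 with scaling by library size only), with a median of -0.155, and without control 2 the counts were 12 and 1. Gars, for glycine, fell from 324, 330.2 and 335 CPM to 205, 213 and 204.6 CPM (log2 fold change -0.67, adjusted p = 0.00205 by edgeR). Rars, for arginine, had 409, 187.7 and 412 CPM in controls and 135, 144 and 139.6 CPM in knockouts, with control 2 nearer to the knockouts. Its log2 change was -1.27 (adjusted p = 0.0331 by edgeR), and the call was lost without control 1, control 3 or any 1 knockout (adjusted p up to 0.116). Of the 36 genes of mTORC1 and its regulators, amino acid sensors among them, 5 (13.9%) rose and 4 (11.1%) fell, close to the shares of all genes. The median was 0.00. With scaling by library size only 8 rose and 1 fell, and without control 2 there were 8 of each. Deptor, a subunit that inhibits mTOR, fell from 8.90, 8.55 and 9.10 CPM to 4.01, 2.62 and 3.899 CPM (log2 fold change -1.33, adjusted p = 0.00806 by edgeR). Fnip1, a partner of folliculin, rose from 46.2, 49.7 and 40.2 CPM to 68.0, 69.4 and 63.4 CPM (log2 fold change 0.56, adjusted p = 0.0119 by edgeR), a call lost without knockout 1 or knockout 2 (adjusted p up to 0.0583).

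Carriers of amino acids and peptides from other families were the last list, with 15 of 20 tested. Of these, 4 (26.7%) rose and 3 (20%) fell (4 and 1 with scaling by library size only), with a median of 0.085, and without control 2 the counts were 6 and 3. Slc15a3, a lysosomal carrier of histidine and dipeptides, had 0.527, 0.272 and 0.603 CPM in controls and 10.1, 15.6 and 14.4 CPM in knockouts. The groups were far apart (log2 fold change 4.81, SE 0.347, adjusted p = 0.00148 by edgeR), though Tmem132a covers 28.1% of its exonic bases on the other strand. Slc16a10, which carries aromatic amino acids, had 13.2, 5.66 and 15.8 CPM in controls and 3.08, 3.74 and 3.56 CPM in knockouts. On the log2 scale the difference was -1.74 (adjusted p = 0.0274 by edgeR), and the call was lost without control 1, control 3 or any 1 knockout (adjusted p up to 0.106).

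**Figure D5:**
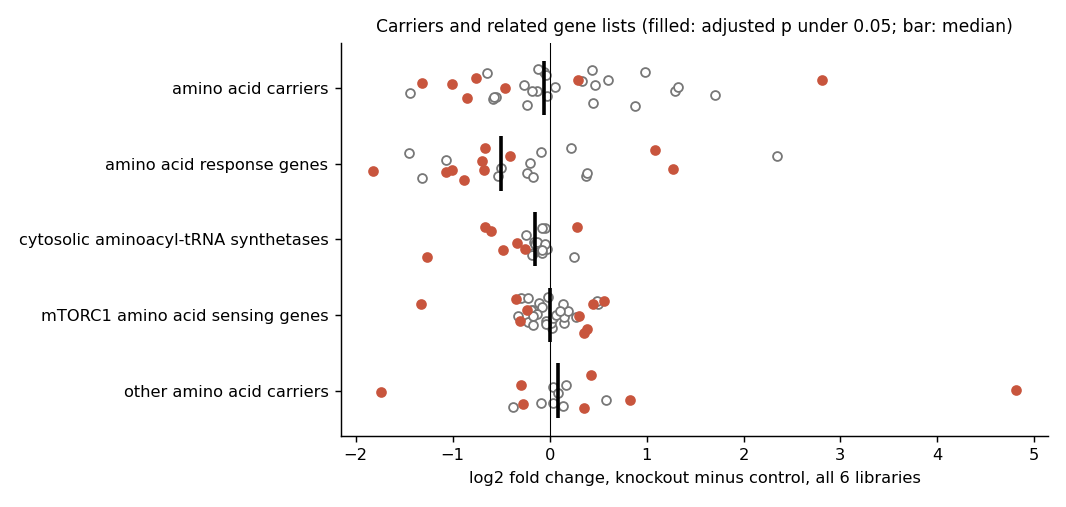
Log2 fold changes (x axis, knockout minus control, all 6 libraries) of the carriers and of the 4 related lists, 1 point per gene, filled where the edgeR adjusted p was under 0.05, with the list median as a bar. The amino acid response list has the lowest median of those drawn, -0.51, and the carriers lie at -0.06 with calls on both sides.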

How the data were processed

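Polyadenylated RNA of cultured and sorted mouse brain endothelial cells was sequenced after preparation with the TruSeq v2 or the TruSeq Stranded kit per the labels' protocols, which do not say which library used which. Raw counts of 52636 Ensembl genes in 6 libraries were taken as the authors deposited them. FastQC 0.11.5, STAR 2.7.6a and the build GRCm38 are named per the submitters' processing notes, while the program that counted reads, its strand option and its gene models are not given in the sources used for this text. There were 0 rows without a gene and 0 columns from other samples. Symbols, positions, exonic lengths and exon overlaps came from GENCODE M21 on GRCm38, which matched 52489 identifiers.

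In R 4.3.3, genes were filtered with filterByExpr by group, scaled with TMM and compared with edgeR 4.0.16 (glmQLFit, glmQLFTest, two-sided, no covariate) over the whole table. Benjamini-Hochberg adjustment ran over all genes tested, and genes below 0.05 were called. The standard error is the log2 fold change divided by the square root of F. The position of control 2 was computed on log2 of CPM plus 0.5. Any library pair differed by a chi-square of at least 6.28 per degree of freedom, which is beyond counting error, so no libraries were merged. Each was kept as a replicate, though this value cannot tell whether libraries came from separate animals or cultures. Groups came from the labelled genotype. Replicate numbers were not treated as pairs.

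The carriers, gene lists and tests were chosen with earlier results of these data known. The rule for named genes took Erg, Fli1, called carriers of at least 5 CPM, the 5 uncalled carriers highest per kilobase, up to 6 called only without control 2, and the 2 most changed called genes of each list. Other genes given with values were chosen after their values were seen. Alternatives were RLE, upper-quartile and library-size scaling, DESeq2 1.42.0, limma 3.58.1 voom with and without sample weights, other filters, a replicate block, a term for sex read from Xist, each library left out, a threshold of 0.01 and glmTreat at 1.5-fold. Settings that combine another choice with leaving out control 2 were added after seeing the data. The scripts were tested on simulated data, where recovery of known changes was required only at a fixed low spread, not at the spread of these libraries.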

Additional observations from a re-analysis of the deposited data

How the results depend on the processing

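The carriers Slc7a5, Slc7a7, Slc1a4, Slc38a6 and Slc6a15 were called under every setting but the test against a 1.5-fold change, which Slc7a5, Slc7a7 and Slc6a15 passed. Slc7a1 lost its call with no filter, a replicate block, a term for sex and without control 1, control 3 or any knockout, and Slc38a7 lost its call with the block and without control 1, control 3, knockout 1 or knockout 2. Both also lost it at an adjusted p under 0.01 and in the test against a 1.5-fold change. Called genes are given as higher and lower for the carriers, the amino acid response, the synthetases, the mTORC1 list and the other carriers, in that order. As reported they were 2 and 5, 2 and 8, 1 and 6, 5 and 4, and 4 and 3. With RLE scaling they were 2 and 5, 2 and 8, 1 and 9, 5 and 4, and 4 and 3. With upper-quartile scaling they were 2 and 5, 3 and 8, 1 and 7, 5 and 3, and 4 and 3. With scaling by library size only they were 4 and 5, 3 and 7, 2 and 5, 8 and 1, and 4 and 1. With DESeq2 they were 6 and 7, 3 and 12, 1 and 10, 5 and 7, and 4 and 3. With limma voom they were 5 and 5, 3 and 8, 1 and 6, 5 and 4, and 4 and 2. With limma voom and sample weights they were 13 and 11, 6 and 13, 2 and 12, 9 and 10, and 6 and 3. With no filter on low counts they were 1 and 6, 3 and 7, 1 and 5, 5 and 1, and 3 and 1. With a filter of 10 counts in all they were 2 and 6, 2 and 8, 1 and 6, 5 and 3, and 4 and 2. With a filter of 1 CPM in 3 libraries they were 2 and 5, 2 and 8, 1 and 7, 5 and 4, and 4 and 3. With a term for sex they were 1 and 7, 3 and 9, 1 and 5, 5 and 1, and 4 and 0. At an adjusted p under 0.01 they were 1 and 4, 2 and 5, 0 and 2, 2 and 1, and 2 and 0. Against a 1.5-fold change they were 1 and 2, 2 and 3, 0 and 0, 0 and 1, and 1 and 0. With the replicate number as a block, a number that the samples only share, they were 1 and 4, 2 and 8, 0 and 2, 4 and 1, and 2 and 0, and Slc7a1 and Slc38a7 lost their calls. Deviations from the group means correlated at -0.186, 0.178 and 0.299 between same-numbered libraries, and control 1 correlated best with knockout 3. With each library left out in turn they ranged over 1 to 13 and 4 to 12, 2 to 6 and 6 to 13, 0 to 1 and 2 to 12, 2 to 8 and 1 to 8, and 2 to 6 and 0 to 3, with the highest counts of carriers without control 2. Without control 2 and with RLE scaling they were 13 and 12, 6 and 13, 1 and 12, 7 and 8, and 6 and 3. Without control 2 and with upper-quartile scaling they were 13 and 12, 6 and 13, 2 and 12, 8 and 8, and 6 and 3. Without control 2 and with scaling by library size only they were 15 and 10, 6 and 11, 3 and 6, 12 and 4, and 7 and 2. Without control 2 and with a filter of 10 counts they were 13 and 13, 6 and 12, 1 and 11, 7 and 8, and 6 and 3. These last 4 were chosen after seeing the data, and the cause of the differences was not tested.

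The sign of Slc38a10 turned from -0.04 to 0.053 with scaling by library size only, 0.12 with sample weights, 0.11 without control 2 (also with RLE and upper-quartile scaling), 0.235 with scaling by library size only and without control 2 (where alone it was called, adjusted p = 0.0123), and 0.12 with a filter of 10 counts and without control 2, and it ranged from -0.15 to 0.11 as each library was left out. The sign of Slc7a2 turned from 0.45 to -0.088 without control 1 and to -0.078 without control 3, against 3.89 without control 2. Scaling by library size only moved the median of all genes by about 0.09 with all libraries and 0.12 without control 2. Over the named genes 485 values kept side and direction, 56 gained a call, 48 lost one and 9 turned sign. Depth limited the genes under about 1 CPM, such as Slc1a3 and Slc43a1, where intervals cover counting error only.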
